A study of Homo sapiens with 6 samples.

Results

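Aminoacyl-tRNA synthetases are the enzymes that join each amino acid to its transfer RNA, the step that feeds the ribosome. The genes described here are those whose probe sets carried exactly 1 symbol of an aminoacyl-tRNA synthetase or of the scaffold proteins AIMP1, AIMP2 and EEF1E1. Of 40 human genes with such a symbol, 18 had a named probe set, among 14884 named genes on the array. They were 17 of 20 cytosolic enzyme genes and 1 of 3 scaffolds, AIMP1. None of the 17 mitochondrial enzyme genes had a named probe set, so the comparison of cytosolic with mitochondrial enzymes was not made and the mitochondrial enzymes and the other genes without a named probe set are not analysed here. A gene with several probe sets was represented by the one with the highest mean over the 6 arrays, and all 18 lay above the median probe set.

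The cells were BE(2)-C_tetoff_KDM4C, a derivative of the human neuroblastoma line BE(2)-C in which a tet-off construct expresses KDM4C, a histone demethylase, unless doxycycline is present. All 6 cultures carried the construct and grew in medium with dialyzed serum. Total RNA from 3 samples with doxycycline (construct silent) and 3 without it (construct on) was taken at day 6 and hybridised to 1 Affymetrix array each. The labels call the samples independent without naming separate cultures, and do not say whether the line is 1 clone. Arrays of cells without the construct were not analysed here, so induction of KDM4C and withdrawal of doxycycline cannot be told apart. In whole-culture RNA, a change in the share of some cells and a change in RNA per cell cannot be told apart either.

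Values are log2 expression values, and a difference is the mean without doxycycline minus the mean with it, on that log2 scale. The arrays correlated at 0.991 to 0.993 within groups and at 0.990 to 0.991 between groups, over all probe sets. KDM4C itself was 1.27 higher without doxycycline (SE 0.07, limma adjusted p = 0.0079), the direction of the labels. With 1 array left out its adjusted p lay between 0.0311 and 0.0696, and the call was lost when treated replicate 1, treated replicate 2, untreated replicate 2 or untreated replicate 3 was the one omitted. Of the neuroblastoma markers measured, all 8 lay between 8.70 (GATA2) and 11.0 (DBH) with doxycycline, while TYROBP, PECAM1, VWF and KRT5, markers of blood, endothelial and epithelial cells, lay between 2.98 and 3.35. The marker of blood cells CD68 lay at 5.74 and that of epithelium EPCAM at 4.20; fibroblast markers are not analysed here. None of these markers passed the test; 2 neuroblastoma markers were higher and 1 lower at an unadjusted limma p below 0.05, where 7.57% of named genes were higher and 6.87% lower.

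In the cytosol most synthetases work alone or as dimers, while 8 of the enzyme genes encode members of the multisynthetase complex, which AIMP1, AIMP2 and EEF1E1 hold together. GARS1 and KARS1 each encode both the cytosolic and the mitochondrial enzyme, and EPRS1 charges glutamate and proline with 1 polypeptide. When amino acids run short or the endoplasmic reticulum is stressed, the kinases of eIF2alpha raise translation of ATF4, a transcription factor known to induce many cytosolic synthetase genes. ATF4 acts together with C/EBP proteins at composite sites whose core letters are TGATGNAA, where N is any base.

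Those letters were looked for, on both strands, in windows of 300 bases from 250 bases before to 50 bases after each annotated transcription start (RefSeq, GRCh38.p14). They were present in 3.62% of all 35116 windows and in at least 1 window of 4.46% of 27305 genes. Of the 18 genes measured here, 15 had a window in the RefSeq table and 7 of these 15 held a match. The stretches around the matches of all 7 genes are shown. These genes had positive differences, 2 of them past the test, as described with their values. Of the 17 cytosolic enzymes measured, 14 had positive differences, so the sign does not set the 7 apart. Each stretch is printed in the direction of its gene, with the match in capitals.
MARS1: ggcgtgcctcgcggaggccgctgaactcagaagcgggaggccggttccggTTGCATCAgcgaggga
GARS1: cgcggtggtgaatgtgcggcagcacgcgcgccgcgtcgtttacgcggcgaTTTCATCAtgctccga
CARS1: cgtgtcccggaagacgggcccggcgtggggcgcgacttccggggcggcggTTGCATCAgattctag
AARS1: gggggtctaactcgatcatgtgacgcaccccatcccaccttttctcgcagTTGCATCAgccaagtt
NARS1: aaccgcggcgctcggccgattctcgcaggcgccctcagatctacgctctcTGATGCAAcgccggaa
IARS1: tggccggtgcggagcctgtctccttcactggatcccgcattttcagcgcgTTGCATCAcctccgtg
TARS1: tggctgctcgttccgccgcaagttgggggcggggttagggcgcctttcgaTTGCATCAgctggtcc

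The stretch of MARS1 lies at chr12:57488014-57488079 on the plus strand, and its match begins 4 bases before the annotated start. That of GARS1 lies at chr7:30594795-30594860 (plus strand, 33 bases before the second of 2 annotated starts). Those of CARS1 (chr11:3057410-3057475), AARS1 (chr16:70289678-70289743) and IARS1 (chr9:92293695-92293760) are on the minus strand, with matches that begin 2, 187 and 13 bases before the start. In TARS1 (chr5:33440917-33440982, plus strand) and NARS1 (chr18:57621807-57621872, minus strand) the match begins 2 and 14 bases after the start. Except in NARS1, the letters read TGATGNAA on the strand opposite to the gene. Except in GARS1, they are TGATGCAA, a narrower form counted after the first result was seen, which 0.866% of all windows hold. The windows of WARS1, SARS1, EPRS1, HARS1, KARS1, QARS1, RARS1 and AIMP1 held no match, which says only that these letters are not in them. LARS1, VARS1 and YARS1 had no window in the table.

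Of the cytosolic synthetases, a few were higher without doxycycline. WARS1, MARS1 and GARS1 rose at a limma adjusted p below 0.05 and 0 of the 17 fell, against 0.43% of all named genes that rose and 0.134% that fell in the same fit (0.248% and 0.0933% of all probe sets). At an unadjusted limma p below 0.05, 10 of the 17 were higher and 1 lower, against 7.57% and 6.87% of named genes. Of the 17, 14 differences were positive and 3 negative, with a median of 0.18 and a range of -0.22 to 0.95, while the median of all named genes was -0.0020 and 49.4% of them were positive. In 12 of the 17 every array without doxycycline lay above every array with it, against 12.1% of named genes. In 1, RARS1, every array lay below, against 12.5%. Averaged over the 17 genes, the deviation from each gene's own mean was -0.17, -0.11 and -0.15 on the doxycycline arrays and 0.14, 0.14 and 0.15 on the others. All 3 arrays of a group thus stood on the same side. The median deviations of the 17 genes did too, at -0.18, -0.12 and -0.07 with doxycycline and 0.09, 0.08 and 0.13 without. Over all named genes the median deviations lay between -0.0081 and 0.0035.

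**Figure D1:**
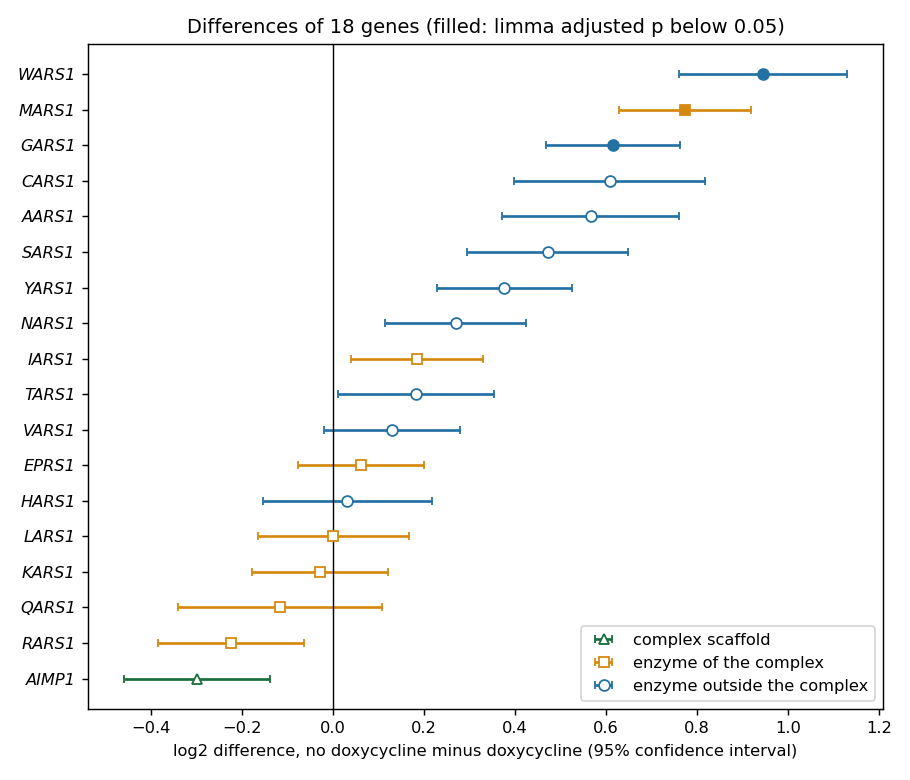
Log2 difference (no doxycycline minus doxycycline, horizontal axis) of the 18 genes, with the 95% confidence interval of the limma fit to 3 arrays per group. Filled symbols passed the adjusted threshold of 0.05; blue circles are enzymes outside the multisynthetase complex, orange squares enzymes of the complex and the green triangle its scaffold AIMP1. All 10 blue circles lie to the right of 0, while the complex holds MARS1 at 0.77 and the lowest values, down to AIMP1 at -0.30. Of all named genes, 49.4% had positive differences. The difference between enzymes inside and outside the complex was not tested.

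Among the enzymes outside the complex, all 10 measured had positive differences, against 49.4% of named genes. Their median was 0.42 and their range 0.03 to 0.95. The lowest of these differences, that of HARS1, lay between -0.011 and 0.085 when 1 array was left out. WARS1 and GARS1, 2 of the 10, passed the test, against 0.43% of named genes that rose. WARS1 charges tryptophan and is also known as a gene induced by interferon gamma. It was at 7.81, 7.95 and 7.73 with doxycycline and at 8.80, 8.73 and 8.79 without. The groups were apart by several times the spread within either, and WARS1 was 1.93-fold higher without doxycycline, a log2 difference of 0.95 (SE 0.08, limma adjusted p = 0.0140). A second, dimmer WARS1 probe set, at 3.55 ± 0.02 with and 3.97 ± 0.24 without doxycycline (SD, n = 3 each), had a difference of 0.42 and did not pass. The mean of both probe sets gave 0.68. It passed in a fit with 1 row per gene, adjusted over 14884 named genes in place of 53617 probe sets.

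GARS1 supplies glycyl-tRNA synthetase to both cytosol and mitochondria. Its values were 9.91, 9.97 and 9.91 with doxycycline and 10.53, 10.53 and 10.59 without. The spread within each group was small, with an SD of 0.04 with and 0.03 without doxycycline. GARS1 was 1.53-fold higher without doxycycline, a log2 difference of 0.62 (SE 0.06, limma adjusted p = 0.0261).

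CARS1, the enzyme for cysteine, was as far apart as GARS1 but varied more between arrays. It was at 6.14, 6.04 and 5.87 with doxycycline and at 6.57, 6.69 and 6.60 without, a log2 difference of 0.61 (SE 0.09, limma adjusted p = 0.0581). AARS1, which charges alanine, was at 10.11, 10.12 and 10.31 with doxycycline and at 10.70, 10.71 and 10.82 without, a log2 difference of 0.57 (SE 0.08, limma adjusted p = 0.0580). SARS1 charges serine and also the transfer RNA that later carries selenocysteine. It was at 10.18, 10.31 and 10.32 with doxycycline and at 10.69, 10.72 and 10.82 without (log2 difference 0.47, SE 0.07, limma adjusted p = 0.0720). In each of these genes the groups did not overlap, and none passed the test over all probe sets. With 1 row per gene and the adjustment over 14884 named genes in place of 53617 probe sets, CARS1, AARS1, SARS1 and YARS1 also passed, which made 7 cytosolic enzymes. Without dim probe sets 5 passed, and with trend and robust moderation 6. More probe sets over the whole table also passed there, 311 and 385, against 183 in the main fit. How many of all named genes passed with 1 row per gene was not counted, so the 7 stand without a background share.

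**Figure D2:**
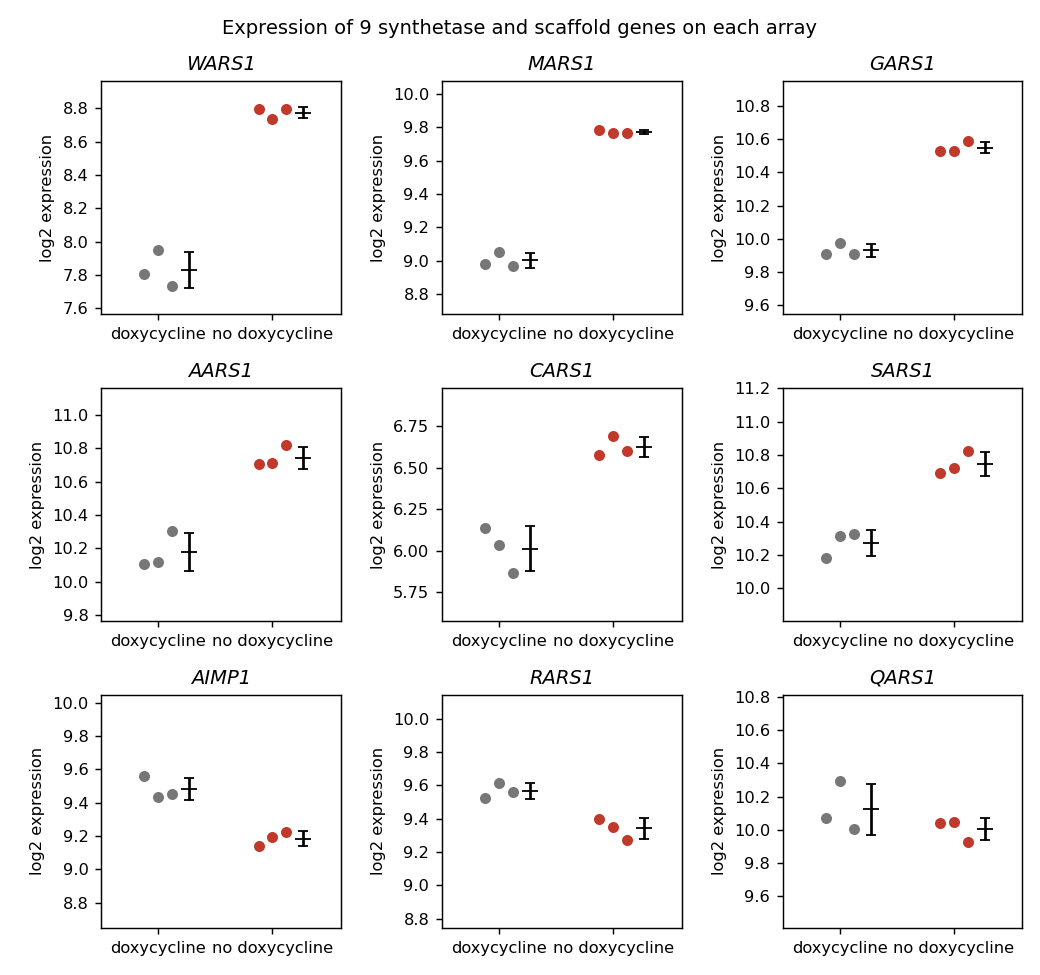
Log2 expression (vertical axis, each panel spanning the same range of 1.4 log2 units) on each array with doxycycline (grey) and without (red) for the genes past the threshold, and for the members with the smallest p outside it in each direction. Black bars give the mean and SD of 3 arrays. In every panel but that of QARS1 the red and grey points do not overlap. The panels were chosen by p, which favours such separation. Of all named genes, 12.1% were entirely higher and 12.5% entirely lower without doxycycline.

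YARS1 (tyrosine) was at 8.24, 8.31 and 8.25 with doxycycline and at 8.61, 8.68 and 8.64 without, a difference of 0.38 (95% confidence interval 0.23 to 0.53). NARS1 (asparagine) differed by 0.27 (95% confidence interval 0.12 to 0.43) and was nearly the same on the 3 arrays without doxycycline, at 10.64, 10.63 and 10.64. TARS1 (threonine) and VARS1 (valine) differed by 0.18 and 0.13, still without overlap of the groups, and the second VARS1 probe set also gave 0.13. HARS1, the enzyme for histidine, was at 7.42 ± 0.10 with and 7.46 ± 0.07 without doxycycline (SD, n = 3 each). Its groups overlapped, and the 95% confidence interval of its difference was -0.15 to 0.22. That interval lies below those of YARS1 and SARS1 (0.30 to 0.65), though the difference between genes was not tested.

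In the complex, MARS1 alone passed the test, and the other 6 measured enzymes had differences between -0.22 and 0.18. The median of the 7 was 0.00090. The difference between enzymes inside and outside the complex was not tested. Of all named genes, 0.43% passed as higher. MARS1 charges methionine on both the initiator and the elongator transfer RNA. Its values were 8.98, 9.05 and 8.97 with doxycycline and 9.79, 9.77 and 9.77 without, with an SD of 0.04 and 0.01. The gene was 1.71-fold higher without doxycycline, a log2 difference of 0.77 (SE 0.06, limma adjusted p = 0.0138).

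IARS1 (isoleucine) had a difference of 0.18 (95% confidence interval 0.04 to 0.33, limma adjusted p = 0.290). EPRS1 was at 10.33, 10.37 and 10.33 with doxycycline and at 10.41, 10.39 and 10.42 without. Its groups did not overlap, but the difference was 0.06, with an interval of -0.08 to 0.20 that holds 0. LARS1, the leucine enzyme that also serves as a leucine sensor of mTORC1, was at 9.84 in both groups (difference 0.00090, 95% confidence interval -0.16 to 0.17). KARS1, like GARS1 the source of both a cytosolic and a mitochondrial enzyme, was at 9.49 ± 0.06 with and 9.46 ± 0.01 without doxycycline (SD, n = 3 each). Its interval, -0.18 to 0.12, lies below that of GARS1, 0.47 to 0.76, and this difference between genes was not tested either.

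The 3 lowest differences belonged to AIMP1, RARS1 and QARS1, whose proteins are known to bind each other as a unit within the complex. None of the 3 passed the test, and whether they changed together was not tested. Of all named genes, 12.5% had every array without doxycycline lower. AIMP1, the scaffold, was at 9.56, 9.44 and 9.45 with doxycycline and at 9.14, 9.19 and 9.22 without. Every array without doxycycline was lower, with a difference of -0.30 (SE 0.07, limma adjusted p = 0.163). RARS1 (arginine) was at 9.52, 9.62 and 9.56 with doxycycline and at 9.40, 9.35 and 9.27 without, also without overlap, with a difference of -0.22 (SE 0.07, limma adjusted p = 0.261). QARS1 (glutamine) was at 10.07, 10.29 and 10.00 with doxycycline and at 10.04, 10.05 and 9.93 without. The QARS1 groups overlapped, and the difference was -0.12 (SE 0.09, limma adjusted p = 0.673).

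The genes past the test lay in both structural families of synthetases. Class I enzymes, built on a Rossmann fold, had 2 of 10 past the test (WARS1 and MARS1), 8 positive differences and a median of 0.16. Of the 7 class II enzymes measured, 1 passed (GARS1) and 6 were positive, with a median of 0.27. Enzymes for the amino acids essential in the human diet had 2 of 8 past the test and a median of 0.16. Those for the other amino acids had 1 of 9 and a median of 0.38. Of all named genes, 0.43% passed as higher and 0.134% as lower, and 49.4% had positive differences. These groupings are descriptions, and their differences were not tested.

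Set beside the promoter stretches printed above, the 7 genes with a TGATGNAA match had differences of 0.18 to 0.77 with a median of 0.57, and all 7 had non-overlapping groups, MARS1 and GARS1 among them past the test. The 7 cytosolic members with a window but no match ranged from -0.22 to 0.95 with a median of 0.03, and 3 of them, WARS1, SARS1 and EPRS1, had arrays without doxycycline entirely above. WARS1, the gene with the largest difference, thus had no match in either of its windows. Over the 339 other named genes with a match the median difference was 0.01 and 15.9% had arrays without doxycycline entirely above, against -0.0042 and 12.7% of 10395 other genes without one. For the narrower TGATGCAA these were 0.03 and 19.1% of 89 other genes, against -0.0037 and 12.7% of 10645. A match is a run of letters and no measurement of binding, and binding was not measured on these arrays.

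In lists of 3 neighbouring steps of the pathway, 0 of the genes measured passed the test in either direction, and with 0.43% of named genes higher and 0.134% lower in the same fit, a count of 0 in lists of this size is near the background. The list of charging partners and editing factors also held PRORP and TRMT5, which process and modify transfer RNA. Of its 10 measured genes, 4 were positive and 6 negative, with a median of -0.05. At an unadjusted limma p below 0.05, 1 was higher and 0 lower, near the 7.57% and 6.87% of all named genes. That gene was SEPSECS, which makes selenocysteine on its transfer RNA. It was at 6.34 ± 0.20 with and 6.68 ± 0.10 without doxycycline (SD, n = 3 each), a difference of 0.33 (SE 0.12, limma adjusted p = 0.320). DTD1, an editing deacylase that removes D-amino acids, was at 0.04. PRORP, the nuclease of mitochondrial RNase P, and TARS3, a second threonyl-tRNA synthetase outside the rule, were at -0.15 and -0.13. On the mitochondrial side, QRSL1 and GATB are subunits of the amidotransferase that completes glutaminyl-tRNA, and MTFMT formylates the initiator. Their differences were -0.04, -0.09 and 0.04. These genes were named because no gene of a solely mitochondrial synthetase had a named probe set.

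Of 8 measured genes of tRNA end processing, splicing, modification and export, 3 were positive and 5 negative, with a median of -0.07. At an unadjusted limma p below 0.05, 0 were higher and 1 lower, again near the 7.57% and 6.87% of named genes. ELAC1, an endonuclease that trims the tRNA end, and RTCB, the tRNA ligase, were at 0.33 and 0.05. TSEN54, a subunit of the splicing endonuclease, and ELAC2 were at -0.18 and -0.13. Of 7 measured genes of translation elongation, among them EEF2K, the kinase that inhibits EEF2, 6 were negative, with a median of -0.04 and a range of -0.11 to 0.02, and 0 had an unadjusted limma p below 0.05. EEF2, the translocase, was at -0.11 and EEF1A2 at -0.07, and EEF1D was the one positive value, at 0.02. Some elongation factor genes, EEF1A1 among them, have near-identical copies elsewhere in the genome, so the probe sets of those genes are uncertain. EEF1A1 was at 5.81 with and 5.78 without doxycycline.

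**Figure D3:**
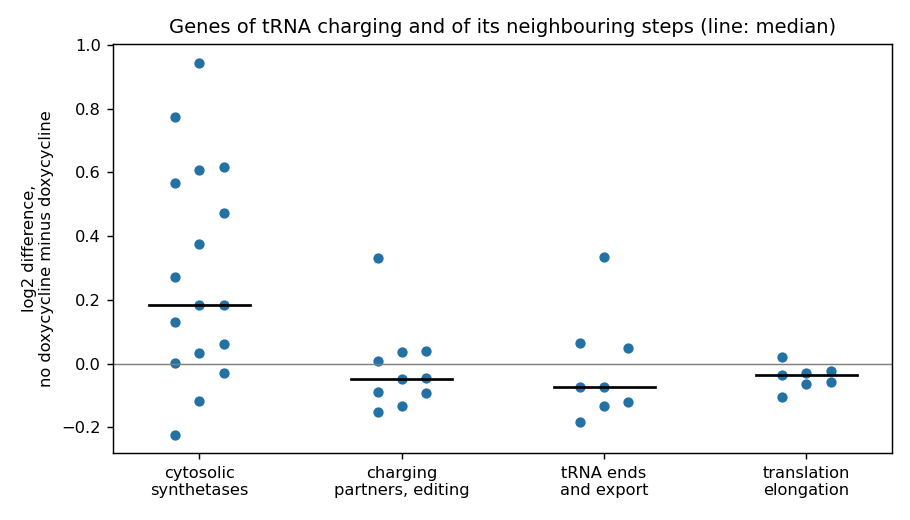
Log2 difference (no doxycycline minus doxycycline, vertical axis) of each measured gene in 4 lists. These are 17 cytosolic synthetases, 10 genes of charging partners and editing factors (with PRORP and TRMT5), 8 genes of tRNA ends, splicing, modification and export, and 7 genes of translation elongation. Points are genes and black lines medians, which are 0.18, -0.05, -0.07 and -0.04 from left to right.

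The 3 calls rest on all 6 arrays. Leaving out any 1 array left 0 cytosolic enzymes past the threshold, with limma adjusted p between 0.0578 and 0.0968 for WARS1, 0.0628 and 0.0960 for MARS1 and 0.0937 and 0.130 for GARS1. The differences themselves then stayed between 0.90 and 1.00 for WARS1, 0.76 and 0.80 for MARS1 and 0.60 and 0.64 for GARS1.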

How the data were processed

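Per the submitters' processing notes, the authors used Partek, with no version, to make the deposited table of log2 expression values, 1 per probe set and array. How background was corrected, arrays normalized and probes summarized, and on which genome build, is not given in the sources used here. A log2 base was read from the values (2.12 to 14.3), since 16-bit scanner output cannot exceed 11.1 as a natural log or 4.82 as a log10. Array medians lay between 3.94 and 3.96. Depth is not defined for arrays, and their number limits the precision.

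Of 53617 probe sets, 16098 had 1 gene symbol in GEO's platform annotation and 37519 none. Limma 3.58.1 under R 4.3.3 (lmFit, eBayes) was run on all 53617, dim ones included and without covariates, and p-values were adjusted by Benjamini-Hochberg over all of them, with a threshold of 0.05. P-values measure the spread between these samples, which may be technical.

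Named with full statistics were members past the threshold and the 3 with the smallest p outside it in each direction. In each neighbouring list these were genes past the threshold and, per direction, the 2 of smallest p. Members, lists and tests were chosen with earlier results of these data known. Alternatives were quantile normalization, median centring, leaving out dim probe sets, trend with robust moderation, the replicate number as a block, leaving out each array, and the mean of a gene's probe sets. Promoter windows came from RefSeq (GRCh38.p14). Scanner files were not used here.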

Additional observations from a re-analysis of the deposited data

How the results depend on the processing

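The differences of WARS1, MARS1 and GARS1 were positive in all 12 alternatives run, and all 3 passed the threshold with quantile normalization, with arrays centred on their medians, without dim probe sets, with trend and robust moderation and with the mean of a gene's probe sets. The number of cytosolic enzymes past the threshold was 5 without dim probe sets (311 probe sets over the whole table), 6 with trend and robust moderation (385) and 7 with the mean of a gene's probe sets, against 3 (183) in the report. The smaller number of rows tested is part of the first and the last of these by construction. The cause of the other was not tested. For the mean of a gene's probe sets, the number of all named genes past the threshold was not counted. Leaving out 1 array gave 0 cytosolic enzymes each time and 0 to 15 probe sets over the whole table. The deviations of same-numbered arrays from their group means correlated at -0.012, -0.014 and 0.041. Those of differently numbered arrays correlated at -0.0307 to 0.0435. Values this near 0 cannot decide whether the samples were handled in pairs, and the sample titles do not say. With the replicate block 0 cytosolic enzymes and 0 probe sets over the whole table passed, with 2 fewer residual degrees of freedom, and KDM4C had a limma adjusted p of 0.118. The differences of LARS1, HARS1 and KARS1, which are near 0, changed sign in some alternatives. LARS1 was at -0.0040 with quantile normalization and at -0.014 with arrays centred on their medians. Without 1 array the range was -0.026 to 0.049 for LARS1, -0.011 to 0.085 for HARS1 and -0.052 to 0.0034 for KARS1. The median of the cytosolic enzymes stayed between 0.16 and 0.21. The comparison of cytosolic and mitochondrial enzymes for the same amino acid and protein identities were not run.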
